A study of Mus musculus with 12 samples.

Results

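The genes S100a8, S100a9, Csf3r, Retnlg, Ngp, Ltf, Camp, Lcn2, Mpo and Elane, which encode cytoplasmic, receptor, secreted and granule proteins of neutrophils, were followed through 12 libraries of mouse lung RNA. They were taken by symbol alone from a table of 20793 entries, and all 10 were found in it. The lungs came from C57BL/6J mice that had been fed for 12 weeks a diet with 60% or 10% fat and were then kept in more than 95% oxygen (hyperoxia) or in room air. The 4 groups of 3 libraries were 60% fat in room air, 10% fat in room air, 60% fat in oxygen and 10% fat in oxygen. The strain and the tissue were common to all groups, and neither the age of the mice nor the length of the oxygen exposure is given in the sources used here. The design asks how diet-induced obesity bears on the lung's injury by oxygen. The labels number the libraries of a group 1 to 3 without naming animals, so the p-values below reflect the scatter of these libraries alone, which may be of technical origin.

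Neutrophils are short-lived white blood cells that are made in bone marrow under the growth factor G-CSF, circulate in blood and enter the lung when it is inflamed. Their granule genes are read in order during maturation. The primary granule enzymes encoded by Mpo and Elane are transcribed in promyelocytes, and the secondary granule proteins encoded by Ngp, Camp, Ltf and Lcn2 are transcribed in myelocytes and metamyelocytes. A mature neutrophil has largely shut off both sets and carries abundant S100a8 and S100a9 RNA, whose products form the calcium-binding heterodimer calprotectin, together with Csf3r, the G-CSF receptor, and in mice Retnlg, a small secreted protein of the resistin family. Lcn2 (lipocalin 2, which binds bacterial siderophores) and Ltf (lactoferrin, which binds iron) are also made by airway epithelium. In whole lung, fewer cells of a type and less RNA per cell cannot be told apart.

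Transcription of these genes in developing neutrophils depends on factors of the C/EBP family and on PU.1. The 250 bases upstream of the annotated start are shown for 6 members: for S100a8 and S100a9 and for Ngp and Camp because each pair varied together across the libraries, for Csf3r because it differed between oxygen and air, and for Lcn2 because it followed neither pair. The sequences are RefSeq's, from GRCm38.p6, in which all 10 members had an entry, and each is read 5′ to 3′ on the strand of its gene. They lie at chr3:90668821-90669070 (plus strand) for S100a8, chr3:90695722-90695971 (minus) for S100a9, chr4:126024409-126024658 (plus) for Csf3r, chr9:110419558-110419807 (plus) for Ngp, chr9:109849457-109849706 (minus) for Camp and chr2:32387740-32387989 (minus) for Lcn2. Capitals mark matches, on either strand, to the C/EBP letters TTGCNNAA and to short letters for PU.1 and the TATA box that are spelled out after the sequences.
S100a8: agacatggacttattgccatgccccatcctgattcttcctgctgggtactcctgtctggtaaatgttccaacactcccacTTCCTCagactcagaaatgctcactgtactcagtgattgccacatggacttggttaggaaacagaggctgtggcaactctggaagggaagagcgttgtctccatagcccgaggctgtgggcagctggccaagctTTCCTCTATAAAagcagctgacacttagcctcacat
S100a9: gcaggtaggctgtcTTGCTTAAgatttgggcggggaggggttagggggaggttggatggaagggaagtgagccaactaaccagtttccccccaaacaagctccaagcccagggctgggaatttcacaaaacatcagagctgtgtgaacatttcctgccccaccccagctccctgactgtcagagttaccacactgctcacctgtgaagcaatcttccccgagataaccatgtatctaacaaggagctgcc
Csf3r: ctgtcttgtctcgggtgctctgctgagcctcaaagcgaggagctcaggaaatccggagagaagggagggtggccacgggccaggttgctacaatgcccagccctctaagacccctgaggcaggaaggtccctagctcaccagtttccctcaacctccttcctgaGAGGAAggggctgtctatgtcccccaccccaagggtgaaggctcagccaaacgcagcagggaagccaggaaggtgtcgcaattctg
Ngp: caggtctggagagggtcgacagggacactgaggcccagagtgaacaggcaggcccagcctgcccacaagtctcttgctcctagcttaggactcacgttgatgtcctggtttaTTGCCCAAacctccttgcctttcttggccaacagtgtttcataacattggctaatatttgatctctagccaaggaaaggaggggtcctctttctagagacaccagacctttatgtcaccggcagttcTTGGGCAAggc
Camp: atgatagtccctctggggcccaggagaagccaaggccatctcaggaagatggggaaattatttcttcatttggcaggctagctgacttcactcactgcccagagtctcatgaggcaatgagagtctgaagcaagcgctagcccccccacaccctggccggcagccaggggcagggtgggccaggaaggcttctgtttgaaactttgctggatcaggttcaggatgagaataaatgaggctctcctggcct
Lcn2: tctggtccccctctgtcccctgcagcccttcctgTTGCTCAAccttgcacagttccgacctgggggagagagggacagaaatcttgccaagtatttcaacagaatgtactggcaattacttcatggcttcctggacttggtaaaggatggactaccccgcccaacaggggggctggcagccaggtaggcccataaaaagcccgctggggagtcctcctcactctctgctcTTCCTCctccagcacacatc
C/EBP letters were found upstream of 5 of the 10 members (S100a9, Retnlg, Ngp, Ltf and Lcn2), against 9.56% of the 32851 promoters of the same length. Ngp held a pair of them, at positions -138 and -11 from the start. The PU.1 letters, GAGGAA, were found upstream of 6 members (S100a8, Csf3r, Ltf, Lcn2, Mpo and Elane), against 23.3% of promoters. The TATA box, TATAAA, was found among the members only at S100a8, at position -30, against 12.4% of promoters. The Camp window held none of these letters. The matches are descriptions of these windows, and none of the marked matches overlapped another.

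In the deposited table, whose positions are in mm8 or mm9 (which of them is not stated), S100a8 lies at chr3:90472992-90473956 and S100a9 at chr3:90496554-90499613, 22.6 kb apart. Ngp (chr9:110322311-110325516), Ltf (chr9:110921795-110945270) and Camp (chr9:109749890-109751970) share a stretch of chromosome 9, with 570 kb between Ngp and Camp and 596 kb between Ngp and Ltf. Csf3r lies on chromosome 4, Retnlg on 16, Lcn2 on 2, Mpo on 11 and Elane on 10. No member overlaps another member, and overlap with other genes was not examined.

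Values are RPKM (reads scaled to the length of the transcript and the depth of the library), so levels can be set side by side across genes. The table gives no counts. The smallest steps between low values put the depth of a library at roughly 21.0 to 28.2 M reads. The lung markers Sftpc (surfactant protein C, 8603 to 31810 RPKM), Ager (1099 to 2113 RPKM) and Cldn5 (endothelial claudin, 327.6 to 579 RPKM) were high in every library. The secretoglobin Scgb1a1 alone made up 17.4% to 24.7% of the summed RPKM in room air and 2.70% to 4.65% in oxygen. Of the 10 defining neutrophil markers, 9 were in the table, and Ly6g was not analysed here. Their summed level ran from 855 to 3744 RPKM on 60% fat in room air, from 449 to 2894 on 10% fat in room air, from 173 to 497 on 60% fat in oxygen and from 98.8 to 1832 on 10% fat in oxygen. The members S100a8 and S100a9 made up 78.8% to 91.9% of that sum in each library, so it is no measure apart from them. Changes were tested with limma on log2(RPKM + 0.5) over 13324 genes with at least 1 RPKM in at least 3 libraries, and a gene was called at a Benjamini-Hochberg adjusted p under 0.05. On that scale fold changes of low genes are understated. Of the 10 members, 8 passed this filter, and Mpo and Elane, each at 1 RPKM or more in 1 library, are given as values.

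3 libraries stood apart in these genes and are named with each result they touch. The third library of 10% fat in oxygen held the whole S100a8 group (S100a8, S100a9, Csf3r and Retnlg) within or above the room-air range. No other oxygen library did so for all of these genes. On 60% fat in oxygen the third library reached that range for S100a8 and Retnlg, and the first for Retnlg. The third library of 60% fat in room air held the highest Ngp, Camp, Mpo and Elane of all 12. The third library of 10% fat in room air held the highest Csf3r and Lcn2. In every group S100a8 and S100a9 were highest in the third library and lowest in the second. Together the members made up between 0.0662% and 0.677% of a library's summed RPKM, the highest share in the third library of 60% fat in room air.

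**Figure D1:**
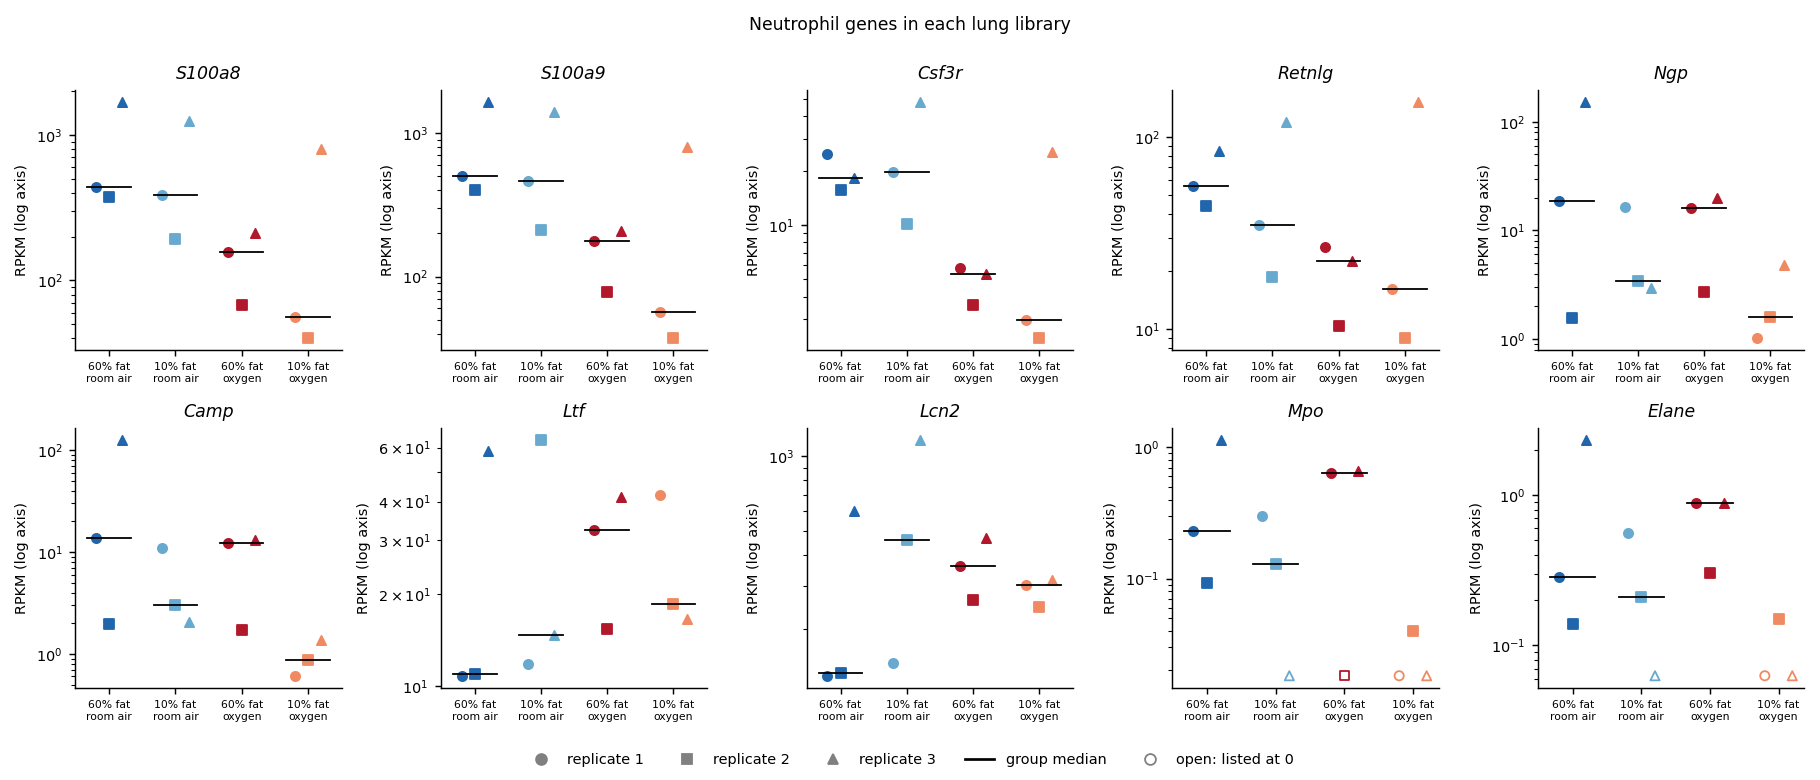
RPKM of each neutrophil gene (log axis) in the 3 libraries of each group, with the marker shape giving the replicate number, a bar at the group median and open symbols for a gene listed at 0. S100a8 spans 40.4 to 1687 RPKM, and the third library of 10% fat in oxygen lies far above the other 2 of its group for S100a8, S100a9, Csf3r and Retnlg but not for Ngp, Camp, Ltf or Lcn2.

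S100a8, the smaller subunit of calprotectin, stood in room air at 442, 374 and 1687 RPKM on 60% fat and at 389, 192 and 1248 RPKM on 10% fat. In oxygen it stood at 156, 67.5 and 211 RPKM on 60% fat and at 56.1, 40.4 and 797 RPKM on 10% fat. On 60% fat every oxygen library lay below every air library. On 10% fat 2 oxygen libraries lay below all air libraries and the third lay above 2 of them. By group median the order was 60% fat in air (442 RPKM), 10% fat in air (389), 60% fat in oxygen (156) and 10% fat in oxygen (56.1), and the ranges of neighbours in this order overlapped. Averaged over the diets, S100a8 fell by 2.10 ± 0.72 (SE) on the log2 scale in oxygen, a 4.30-fold lower level (limma adjusted p = 0.0189). The fit takes the 12 libraries as independent, but same-numbered libraries of the same exposure varied together. SE and p-values over both diets, here and below, may therefore be too small. Neither diet alone passed the threshold (log2 change -2.32 ± 1.02, adjusted p = 0.0638 on 60% fat, and -1.89 ± 1.02, adjusted p = 0.127 on 10% fat). The call over both diets was lost without the second oxygen library of 10% fat (-1.71 ± 0.72, adjusted p = 0.0512) and with robust variances (adjusted p = 0.051).

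S100a9, the partner subunit, repeated these values closely. It stood at 504, 402 and 1650 RPKM on 60% fat in air, at 463, 209.8 and 1413 RPKM on 10% fat in air, at 178, 78.3 and 209.02 RPKM on 60% fat in oxygen and at 56.5, 37.5 and 795 RPKM on 10% fat in oxygen. The ranges on 60% fat did not overlap between oxygen and air, and those on 10% fat did because of the third oxygen library. S100a9 fell by 2.19 ± 0.71 on the log2 scale over both diets (4.57-fold, adjusted p = 0.0147). The ratio of S100a9 to S100a8 stayed between 0.928 and 1.19 in all 12 libraries while the level of S100a8 itself moved from 40.4 to 1687 RPKM.

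Csf3r, through which G-CSF acts on neutrophils and their precursors, was the only member called within each diet. It stood at 24.6, 15.6 and 18.3 RPKM on 60% fat in air and at 5.81, 3.59 and 5.34 RPKM on 60% fat in oxygen, with a wide gap between the groups. On 10% fat it stood at 19.7, 10.1 and 48.0 RPKM in air and at 2.96, 2.38 and 25.3 RPKM in oxygen, where the third oxygen library again reached into the air range. Csf3r fell by 1.89 ± 0.70 on the log2 scale on 60% fat (adjusted p = 0.0332), by 1.78 ± 0.70 on 10% fat (adjusted p = 0.0452) and by 1.83 ± 0.50 over both (3.56-fold, adjusted p = 0.0052). Of all genes tested, 62.8% were called on 60% fat, 59.5% on 10% fat and 72.2% over both diets. The calls within a diet were lost when most single libraries of the comparison were left out, with an adjusted p of 0.0546 to 0.0963 for the 5 such libraries on 60% fat (all but the second air library) and of 0.0761 to 0.185 for the 4 on 10% fat (the first and second in oxygen and the first and the third in air). They were also lost without the filter on low values (adjusted p = 0.0568 and 0.0752).

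Retnlg was measured at 55.7, 43.7 and 85.0 RPKM on 60% fat in air and at 34.8, 18.8 and 121 RPKM on 10% fat in air. In oxygen it was 26.9, 10.4 and 22.6 RPKM on 60% fat, below all air libraries of that diet, and 16.3, 9.04 and 153 RPKM on 10% fat, where the third library was the highest of all 12. Its change did not pass the test (log2 change -1.65 ± 0.88 on 60% fat, adjusted p = 0.119, -0.58 ± 0.88 on 10% fat, adjusted p = 0.588, and -1.11 ± 0.62 over both, adjusted p = 0.124). Without the third oxygen library of 10% fat, it was called over both diets (-1.71 ± 0.43, adjusted p = 0.00398). On 10% fat its sign turned without the second oxygen library (0.22 ± 0.87) or the third air library (0.15 ± 0.89).

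The calls of the S100a8 group on 10% fat depended in part on the third oxygen library of that diet. Without it, oxygen lowered S100a8 by a log2 change of -3.24 ± 0.78 (adjusted p = 0.0048), S100a9 by -3.47 ± 0.75 (adjusted p = 0.0026) and Retnlg by -1.78 ± 0.64 (adjusted p = 0.0356), and 4 members were called in place of 1, while 52.8% of all genes were called in that fit in place of 59.5%. Over both diets the log2 change without that library was -2.78 ± 0.52 for S100a8, -2.88 ± 0.51 for S100a9 and -2.34 ± 0.32 for Csf3r. Without the third air library it was -1.76 ± 0.73, -1.88 ± 0.73 and -1.85 ± 0.54 for that of 60% fat and -1.74 ± 0.72, -1.83 ± 0.71 and -1.54 ± 0.48 for that of 10% fat, and all these calls stood. In the third oxygen library of 10% fat Mmp8 (neutrophil collagenase) was at 18.1 RPKM and Mmp9 (gelatinase B) at 15.2. Cxcr2 (the receptor of the neutrophil chemokines) was at 10.5 there, Il1r2 (the decoy receptor of interleukin 1) at 27.9 and Il1b at 33.4 RPKM. The other 5 oxygen libraries held 2.33 to 4.66 RPKM of Mmp8, 1.07 to 4.41 of Mmp9, 1.73 to 3.47 of Cxcr2, 2.98 to 8.02 of Il1r2 and 3.10 to 6.82 of Il1b. Fpr1 (the formyl peptide receptor, 3.54 RPKM) was within the range of the other oxygen libraries there (1.79 to 3.75 RPKM).

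**Figure D2:**
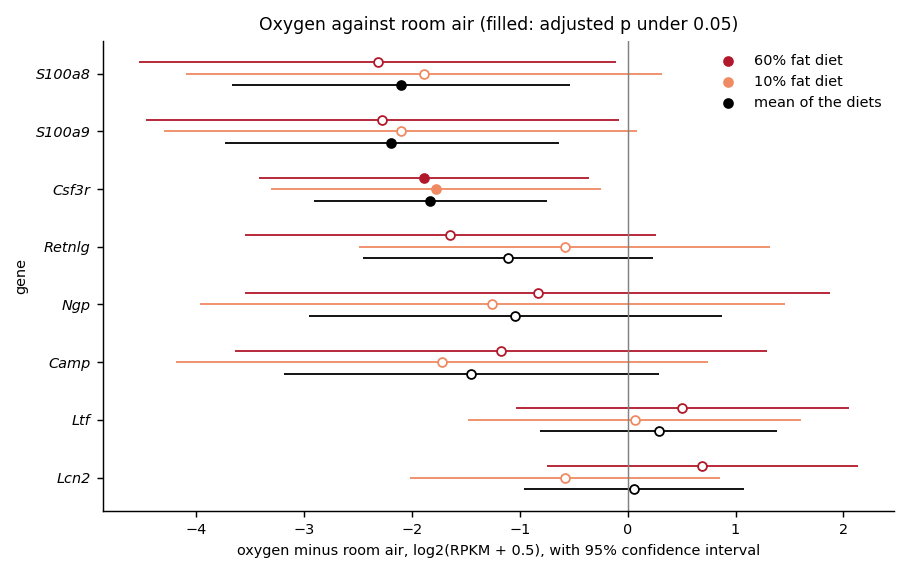
Oxygen minus room air for the 8 tested members, as a difference of log2(RPKM + 0.5) with its 95% confidence interval, on 60% fat, on 10% fat and as the mean of the diets. Filled points passed the adjusted threshold: Csf3r in all 3 comparisons, and S100a8 and S100a9 in the mean of the diets, where they lie at -2.10 and -2.19.

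Ngp (neutrophilic granule protein) and Camp (the cathelicidin antimicrobial peptide), both of secondary granules, behaved otherwise. Ngp stood at 18.8, 1.58 and 152 RPKM on 60% fat in air, at 16.6, 3.41 and 2.93 on 10% fat in air, at 16.0, 2.70 and 20.02 on 60% fat in oxygen and at 1.03, 1.59 and 4.78 on 10% fat in oxygen. Within 60% fat in air alone the highest library was 96.6-fold above the lowest. Camp stood at 13.8, 1.98 and 126 RPKM, at 10.96, 3.02 and 2.05, at 12.3, 1.72 and 13.2, and at 0.610, 0.870 and 1.38 RPKM in the same order of groups. The groups of Camp did not overlap on 10% fat, where all oxygen libraries lay below all air libraries, nor in oxygen between the diets.

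Neither gene was called in oxygen when all 12 libraries were fitted together. The log2 change over both diets was -1.04 ± 0.88 for Ngp (adjusted p = 0.305) and -1.45 ± 0.80 for Camp (adjusted p = 0.121), with 95% confidence intervals of -2.96 to 0.87 and -3.19 to 0.29. On 60% fat the sign rested on the third air library: without it the change was 0.70 ± 1.03 for Ngp and 0.30 ± 0.88 for Camp, against -0.83 ± 1.25 and -1.18 ± 1.13 with it. Ngp was also at 0.01 ± 1.35 without the second oxygen library of 60% fat. Without the second air library of 60% fat, both were called over both diets (Ngp -1.83 ± 0.69, adjusted p = 0.0313, and Camp -2.13 ± 0.65, adjusted p = 0.0113).

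Mpo (myeloperoxidase) and Elane (neutrophil elastase), the primary granule enzymes, were near the floor of the table. Mpo was listed at 0.229, 0.0926 and 1.14 RPKM on 60% fat in air, at 0.300, 0.129 and 0 on 10% fat in air, at 0.633, 0 and 0.666 on 60% fat in oxygen and at 0, 0.0400 and 0 on 10% fat in oxygen. Its highest value corresponds to roughly 72.9 reads. Elane was listed at 0.286, 0.138 and 2.33 RPKM, at 0.560, 0.210 and 0, at 0.891, 0.305 and 0.880, and at 0, 0.150 and 0 in the same order of groups. Both were highest in the third library of 60% fat in air, which held the highest Ngp and Camp, and both were listed at 0 in the third libraries of 10% fat in air and in oxygen, which held 1248 and 797 RPKM of S100a8.

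The third library of 60% fat in air was also the highest of the 12 for several genes of immature neutrophils, picked after their values were seen, and for red cell genes. It held Prtn3 (proteinase 3) at 2.66 RPKM, Ctsg (cathepsin G) at 1.10, Fcnb (ficolin B) at 2.90, Olfm4 (olfactomedin 4) at 2.33 and Cebpe (the C/EBP factor of granulocyte maturation) at 1.54 RPKM. Prtn3 ran from 0.133 to 2.11 RPKM elsewhere and Fcnb from 0 to 0.307. Of the marrow precursor list, Kit and Cd34 were not highest in that library, and Ms4a3 and Gfi1 were below 1 RPKM in all 12. All 11 listed marrow genes summed to 124 RPKM in that library and to 80.9 to 140 RPKM elsewhere. Alas2 (the erythroid haem synthesis enzyme) stood at 106.9 RPKM there, against 27.5 to 92.6 elsewhere. All 9 listed red cell genes were found and none was at 0 in every library. Their summed level ran from 775 to 4279 RPKM on 60% fat in air, from 566 to 1394 on 10% fat in air, from 1090.4 to 1807 on 60% fat in oxygen and from 249.6 to 1527 on 10% fat in oxygen. The globin copies are nearly identical, so their split is uncertain. Prg2 (eosinophil major basic protein) was at 25.02 RPKM in that library and at 0.249 to 5.0 elsewhere, and all 12 listed eosinophil, mast cell and basophil genes together summed to 14.5 to 44.6 RPKM in its group, with Ccr3, Il5ra and Ms4a2 below 1 RPKM in every library. The part of these cells in the Ngp and Camp values was not tested. Csf3r (18.3 RPKM) and Cxcr2 (9.54 RPKM) in that library lay within the range of the other air libraries.

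Lcn2 and Ltf followed neither set. Lcn2 stood at 129.9, 134 and 599.8 RPKM on 60% fat in air, at 146, 461 and 1164 on 10% fat in air, at 361, 264 and 466 on 60% fat in oxygen and at 301, 246 and 317 on 10% fat in oxygen. The oxygen libraries were close together, within 1.77-fold on 60% fat and 1.29-fold on 10% fat, while the air libraries spread over 4.62-fold and 7.96-fold and enclosed them. Ltf stood at 10.8, 10.9 and 58.5 RPKM, at 11.8, 63.6 and 14.7, at 32.3, 15.3 and 41.4, and at 42.0, 18.5 and 16.5 RPKM in the same order of groups. Neither was called. The log2 change over both diets was 0.06 ± 0.47 for Lcn2 (adjusted p = 0.921, 95% interval -0.96 to 1.08) and 0.29 ± 0.50 for Ltf (adjusted p = 0.625, interval -0.81 to 1.38). By diet it was 0.69 ± 0.67 and -0.58 ± 0.67 for Lcn2 and 0.51 ± 0.71 and 0.07 ± 0.71 for Ltf on 60% and 10% fat. The sign of Lcn2 over both diets turned without the third oxygen library of 60% fat or the first or second air library of that diet (-0.13 to -0.04) and without the first air library of 10% fat (-0.33). On 10% fat it turned without the third air library (0.14), and that of Ltf without the first oxygen library or the first or the third air library (-0.38 to -0.23).

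3 of the 6 air libraries held high Lcn2: the third of 60% fat (599.8 RPKM) and the second and the third of 10% fat (461 and 1164 RPKM). In that order Saa3 (serum amyloid A3) was at 37.9, 22.2 and 130.8 RPKM, against 2.06 to 4.94 in the other air libraries. Chi3l3 (a macrophage chitinase-like protein) was at 2071, 802.5 and 5793 RPKM, against 360.2 to 431.9. Cxcl5 (an epithelial neutrophil chemokine) was at 6.79, 23.8 and 12.4 RPKM, against 1.49 to 1.83, and Cd177 (a neutrophil surface protein) at 13.6, 8.37 and 16.3 RPKM, against 3.23 to 4.89. These 4 genes were each highest among the air libraries in the same 3, in differing order, which is a description with no test. The third library of 10% fat also held Csf3r at 48.0, Cxcr2 at 31.5 and Il1b at 60.6 RPKM. The 13 alveolar macrophage markers found of 14 summed to 6708 RPKM there and to 789.8 to 2858 elsewhere, and all 12 monocyte markers to 6513 and to 1115 to 2914. Chi3l3 is in both lists and carried most of that excess: without it the sums were 914.9 RPKM against 421.0 to 787.0 elsewhere, and 720.0 against 604.6 to 1427. No listed marker was below 1 RPKM in every library. The second library of 10% fat in air, with the highest Ltf of all (63.6 RPKM), held 10.1 RPKM of Csf3r and 192 of S100a8. The part of other cells in the Lcn2 values was not tested.

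**Figure D3:**
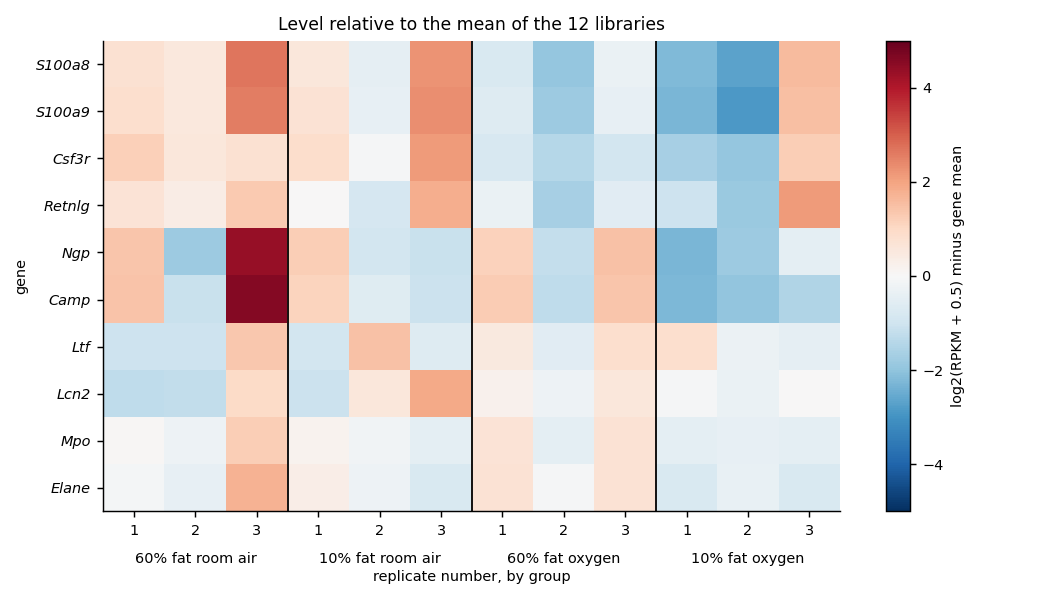
Level of each member in each library as log2(RPKM + 0.5) minus the gene's mean over the 12 libraries, red above and blue below, with black lines between groups. S100a8, S100a9, Csf3r and Retnlg share one pattern, Ngp and Camp another that peaks in the third library of 60% fat in air (4.38 and 4.57 above their means), and Ltf and Lcn2 follow neither closely.

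Across the 12 libraries 4 of the members moved closely together, as did a further pair. The values are Pearson correlations of log2(RPKM + 0.5), given as a description, since the libraries share group, depth and normalization. S100a8 correlated at 0.998 with S100a9, 0.921 with Csf3r and 0.934 with Retnlg, and Ngp at 0.979 with Camp. Between these sets r was lower, from 0.299 (Csf3r with Camp) to 0.559 (S100a8 with Ngp). Ltf and Lcn2 correlated at 0.546 with each other, no higher than S100a8 with Ngp, and Ltf between -0.353 and -0.095 with the 4 genes of the S100a8 set. With the group means removed r was 0.998 for S100a8 and S100a9 and 0.985 for Ngp and Camp. It was 0.555 for Ltf and Lcn2, close to the 0.536 for S100a8 and Ngp, 0.535 for S100a8 and Lcn2 and 0.502 for Ltf and Camp, and it was 0.440 for S100a8 and Camp. Genomic neighbours did not always move together: Ltf, about as near to Ngp as Camp is, correlated with Ngp at 0.291.

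Ratios within a library, which do not depend on its scaling, showed the same. Ngp to S100a8 varied 43.7-fold, from 0.00235 in the third library of 10% fat in air to 0.103 in the first of 60% fat in oxygen. Lcn2 to S100a8 varied 20.7-fold, from 0.294 to 6.09, with a median of 0.356 on 60% fat in air, 0.933 on 10% fat in air, 2.31 on 60% fat in oxygen and 5.37 on 10% fat in oxygen. The third library of 10% fat in oxygen, at 0.397, was again within the air range. Retnlg to S100a8 varied 5.75-fold and Csf3r to S100a8 5.42-fold, both lowest in the third library of 60% fat in air. Ltf to Ngp varied 106.4-fold.

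**Figure D4:**
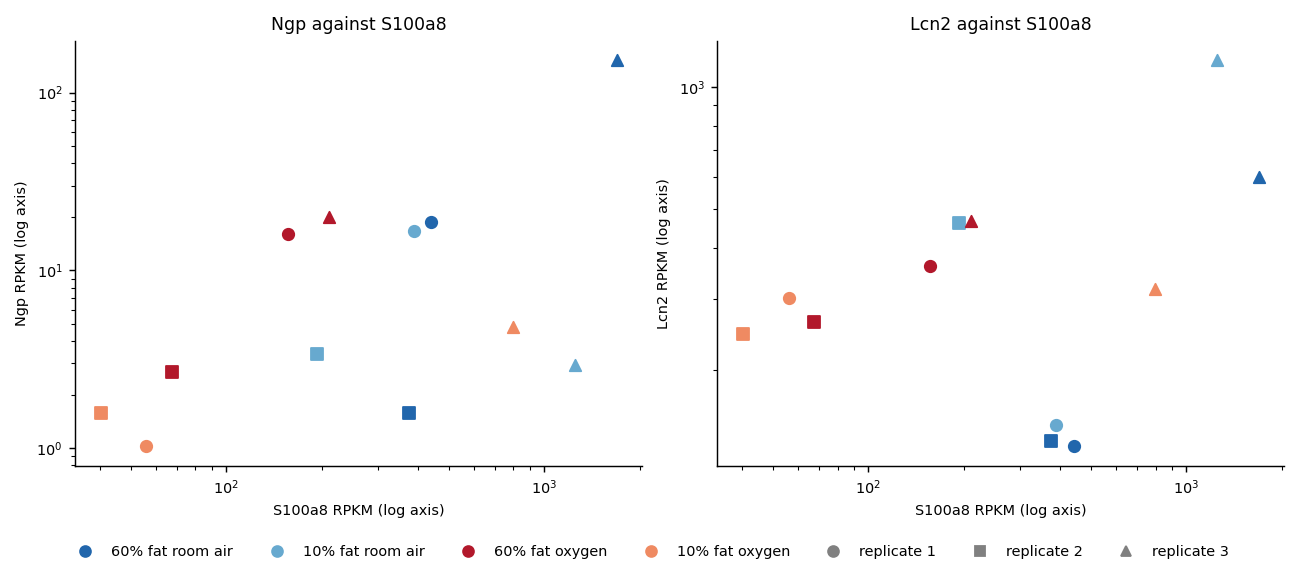
RPKM of Ngp (left) and Lcn2 (right) against S100a8 in the 12 libraries, both axes logarithmic, with color for the group and shape for the replicate number. In the 3 libraries with the highest S100a8 (797 to 1687 RPKM), Ngp is at 152, 2.93 and 4.78 RPKM and Lcn2 spans 317 to 1164 RPKM.

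Among all other tested named genes, those whose level over the 12 libraries was most like that of S100a8 were Mmp9 (r = 0.972), Il1b (0.942), Clec4e (a C-type lectin receptor of myeloid cells, 0.940), Stfa2l1 (a stefin, 0.938) and Pram1 (0.932). With the group means removed they were Mmp8 (0.972), Mmp9 (0.968), Arrb2 (0.965), Rdh12 (0.957) and Clec4e (0.948). Most like Ngp was Prg2 (0.960), followed by Trim36 (0.893), Wdr3 (0.873), Ipcef1 (0.869) and Bub1b (0.840). Most like Lcn2 were Cd177 (a neutrophil surface glycoprotein, 0.935), Ccl6 (0.920), Ms4a6d (0.914), Cd200r4 (0.914) and Atp6v0d2 (a macrophage and osteoclast proton pump subunit, 0.912). With the group means removed Lcn2 was closest to Rab32 (0.975), Steap4 (0.974), Saa3 (0.969), Cd177 (0.966) and Ly6i (0.962).

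Read against the whole table, the members were not called more often in oxygen than other genes. Beside the 62.8%, 59.5% and 72.2% of genes called on 60% fat, on 10% fat and over both diets, 36.5%, 34.2% and 41.8% were called lower. Of the 8 tested members, 1, 1 and 3 were called, all lower. Groups did not overlap for 4 members on 60% fat (S100a8, S100a9, Csf3r and Retnlg, all lower), against 38.2% of genes lower without overlap, and for Camp on 10% fat, against 38.8%. The signed median log2 change of the tested members was -1.41 on 60% fat, -1.49 on 10% fat and -1.28 over both. For all genes, which moved in both directions, it was -0.09, -0.08 and -0.09, so these medians do not compare the sizes of change. Of these 8 members, 7 were at 1 RPKM or more in all 12 libraries and Camp in 10. The medians are descriptions only, since the members were chosen with earlier results known.

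Genes of related function were taken from lists and are given for the mean of the diets, where 30.5% of all genes were called higher. Of 9 tested genes among 16 other granule and cytoplasmic genes, 8 fell, none rose, and the median log2 change was -1.46. Hp (haptoglobin, -2.07 ± 0.15, adjusted p = 8.82e-08), Lyz2 (lysozyme, -1.79 ± 0.14, adjusted p = 1.97e-07), Pglyrp1 (-1.46 ± 0.20, adjusted p = 2.68e-05) and Chi3l1 (-1.23 ± 0.24, adjusted p = 0.000449) had the smallest p-values. Hp (171 to 263 RPKM in oxygen, 731 to 1176 in air) and Lyz2 (1586 to 2210.0 and 5085 to 9499 RPKM) are also made by other lung cells. In the third library of 10% fat in oxygen they stood at 263 and 1950.0 RPKM, below every air library.

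Surface receptors of neutrophils fell in 14 of 22 tested cases and rose in none, with a median of -0.88. Fpr1 fell by 2.48 ± 0.19 (adjusted p = 1.85e-07), Itgal (the LFA-1 integrin subunit) by 1.79 ± 0.15 (adjusted p = 2.91e-07), Fcgr3 (an IgG receptor) by 0.97 ± 0.17 (adjusted p = 0.00019) and Cxcr2 by 1.72 ± 0.41 (adjusted p = 0.00219). For Fpr1 and Itgal no oxygen library reached the air range, 1.79 to 3.75 against 13.1 to 30.0 RPKM for Fpr1 and 4.82 to 6.49 against 15.3 to 35.4 RPKM for Itgal. Of the 8 genes of the oxidative burst and extracellular traps, 7 fell and none rose, with a median of -0.94. They included the NADPH oxidase subunits Ncf4 (-1.30 ± 0.16, adjusted p = 1.22e-05) and Ncf1 (-0.98 ± 0.19, adjusted p = 0.000569) and the GTPase Rac2 (-0.91 ± 0.18, adjusted p = 0.000658). Monocytes and macrophages share many of these genes.

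The signals that call neutrophils moved in both directions. Of 16 tested recruiting ligands 3 rose and 4 fell, with a median of 0.13. Csf3, which encodes G-CSF, the ligand of Csf3r, was listed at 0 in 3 of the 6 air libraries and at 0.109 RPKM or less in the others, and stood at 1.47, 1.31 and 3.86 RPKM on 60% fat in oxygen and at 0.908, 0.421 and 1.90 RPKM on 10% fat in oxygen. Every oxygen library was above every air library, and Csf3 rose by 1.82 ± 0.25 on the log2(RPKM + 0.5) scale (adjusted p = 2.61e-05). Il6 rose by 2.66 ± 0.31 (adjusted p = 7.18e-06), from 0.268 to 1.57 RPKM in air to 3.23 to 10.5 in oxygen. Cxcl1, a ligand of Cxcr2, rose by 1.41 ± 0.49 (adjusted p = 0.0196), from 0.712 to 9.82 RPKM in air to 4.29 to 14.6 in oxygen. The ligands Cxcl2 (0.99 ± 0.46, adjusted p = 0.0715) and Cxcl5 (0.31 ± 0.50, adjusted p = 0.596) were not called, and Cxcl5 ranged from 1.49 to 23.8 RPKM in air. The Cxcl1 call was lost without the third oxygen library of 60% fat (adjusted p = 0.0527) or of 10% fat (adjusted p = 0.0533). Cxcl2 was called in 6 alternative settings. Among them were those without the third air library of 10% fat (1.39 ± 0.36, adjusted p = 0.00415) or the first oxygen library of that diet (adjusted p = 0.0497). Cxcl5 turned to -0.19 ± 0.33 without the first air library of 10% fat. Cxcl12, which retains neutrophils in the marrow through Cxcr4, fell by 0.84 ± 0.09 (adjusted p = 4.84e-06), and Csf2 (GM-CSF) fell by 1.46 ± 0.23 (adjusted p = 9.39e-05).

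**Figure D5:**
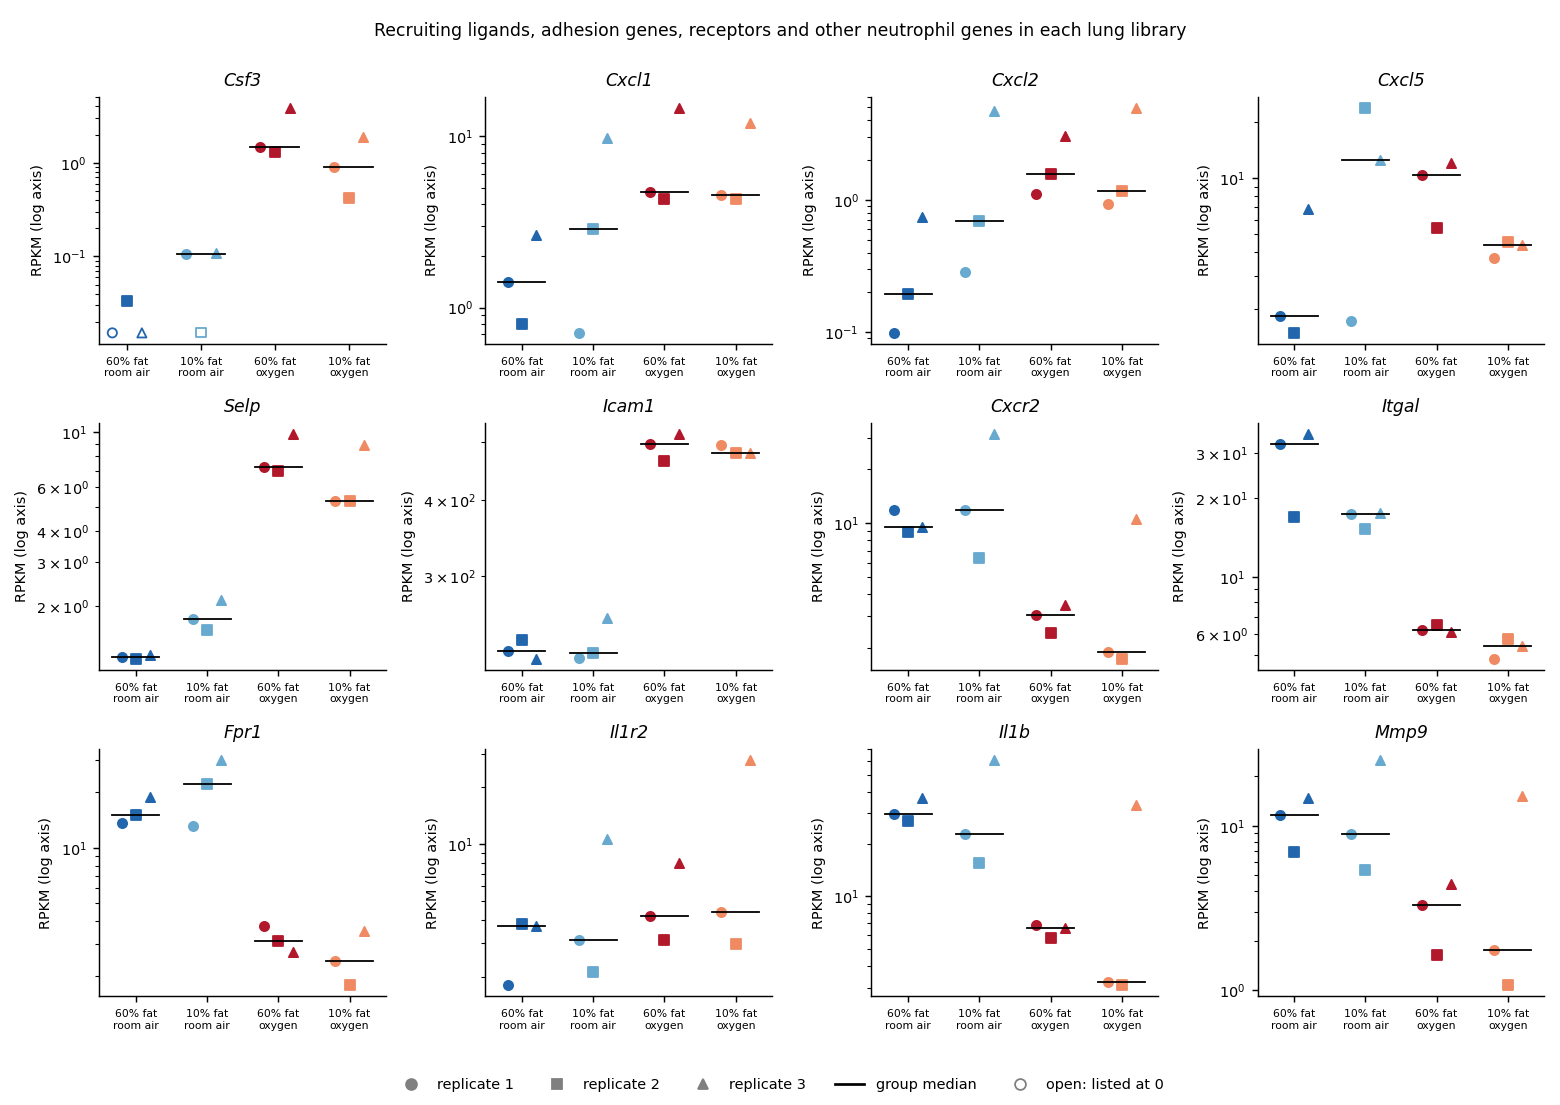
RPKM (log axis) of the ligands Csf3, Cxcl1, Cxcl2 and Cxcl5, the adhesion genes Selp and Icam1 and the neutrophil-associated genes Cxcr2, Itgal, Fpr1, Il1r2, Il1b and Mmp9 in the 3 libraries of each group, with a bar at the group median and open symbols for a gene listed at 0. Csf3, Selp and Icam1 are higher in all 6 oxygen libraries than in any air library, Fpr1 and Itgal are lower in all 6, and Cxcr2, Il1r2, Il1b and Mmp9 are high in the third library of 10% fat in oxygen.

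Endothelial adhesion genes were divided as well, with 3 of 9 higher and 4 lower (median 0.02). Icam1, to which neutrophil integrins bind, rose by 1.09 ± 0.05 (adjusted p = 5.82e-09), from 219 to 255 RPKM in air to 466 to 515 in oxygen, and Selp (P-selectin) by 1.91 ± 0.13 (adjusted p = 7.31e-08), from 1.22 to 2.11 RPKM to 5.27 to 9.85. Icam2 fell by 0.98 ± 0.08 (adjusted p = 1.73e-07) and Jam3 by 0.46 ± 0.08 (adjusted p = 0.000175). Of 6 tested myeloid transcription factors 2 rose and 3 fell (median -0.27): Cebpa fell by 0.87 ± 0.07 (adjusted p = 1.9e-07), Myb by 1.35 ± 0.13 (adjusted p = 1.2e-06) and Irf8 by 0.51 ± 0.08 (adjusted p = 0.000123), and Cebpd rose by 0.63 ± 0.16 (adjusted p = 0.0031). Spi1, which encodes PU.1, was not analysed here.

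Receptors that bind the members' products were mostly lower, with 1 of 7 higher and 4 lower (median -0.30). The lipocalin receptors Lrp2 (-1.25 ± 0.11, adjusted p = 8.19e-07) and Slc22a17 (-0.76 ± 0.09, adjusted p = 6.77e-06) and Bsg, described as an S100A9 receptor in human cells (-0.68 ± 0.10, adjusted p = 3.36e-05) fell, and Lrp1, a lactoferrin receptor, rose (0.56 ± 0.11, adjusted p = 0.000465). Among inhibitors of neutrophil proteases and related genes 2 of 6 rose and 2 fell (median -0.16). Serpina3n, which inhibits elastase and cathepsin G in mice, rose by 2.36 ± 0.09 (adjusted p = 1.06e-09), from 60.6 to 93.7 RPKM in air to 306 to 392 in oxygen, and Timp1, an inhibitor of gelatinase B, rose by 3.34 ± 0.16 (adjusted p = 3.51e-09), from 8.76 to 22.0 RPKM to 75.5 to 160.9. The epithelial injury and acute-phase list, which includes Lcn2, had 7 of 10 tested genes higher and 1 lower (median 1.67), led by Cldn4 (5.34 ± 0.08, adjusted p = 1.01e-12), Krt8 (2.10 ± 0.10, adjusted p = 3.31e-09), Sprr1a (4.17 ± 0.21, adjusted p = 6.64e-09) and Areg (3.44 ± 0.18, adjusted p = 8.76e-09). Lcn2 was not among the 7.

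The diet changed no member detectably. In room air 0 of the 8 tested members were called between 60% and 10% fat, where 0.150% of all genes were called, and in oxygen 0 of 8, where 0.00751% were. No member had an unadjusted p under 0.05 in either comparison, against 12.2% and 8.08% of genes. With the replicate number as a block within each exposure, 466 genes (3.50%) were called in room air and 102 (0.766%) in oxygen in place of 20 and 1, and still 0 members. The largest estimates belonged to Ngp and Camp, higher on 60% fat by a log2 change of 1.58 ± 1.25 and 1.82 ± 1.13 in air (adjusted p = 0.65 and 0.557) and by 2.0 ± 1.25 and 2.37 ± 1.13 in oxygen (adjusted p = 0.74 and 0.646). Camp was the only member whose diets did not overlap, with 12.3, 1.72 and 13.2 RPKM on 60% fat and 0.610, 0.870 and 1.38 on 10% fat in oxygen, against 11.6% of all genes higher without overlap. In air the Ngp and Camp estimates rested on the third library of 60% fat: without it they were 0.05 ± 1.03 and 0.35 ± 0.88.

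The oxygen effect did not differ detectably between the diets for any member. For the difference of the oxygen effects, 0 of the 8 members were called, against 0.0375% of genes (1.82% with the block, and still 0 members), and none had an unadjusted p under 0.05, against 10.3% of genes. The largest difference was that of Lcn2, whose oxygen effect on 60% fat exceeded that on 10% fat by 1.27 ± 0.94 on the log2 scale (adjusted p = 0.675, 95% interval -0.77 to 3.32). For S100a8 the interval of this difference ran from -3.56 to 2.70 and for Csf3r from -2.28 to 2.05, intervals that hold differences of several-fold in either direction.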

How the data were processed

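The 12 libraries were made from lung RNA, and the authors deposited a table of RPKM values per gene (1 column per library). Per the submitters' processing notes, bcl2fastq 2.19 and TopHat2 2.0.11 were used, and the builds mm8 and mm9 are named. No source used here names the tool behind the RPKM values. Groups and replicate numbers came from the labels. The members and gene lists were chosen with earlier results of these data known.

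All 12 libraries were fitted together with limma 3.58.1 in R 4.3.3 on log2(RPKM + 0.5), with a mean per group, trended variances and Benjamini-Hochberg adjustment over the 13324 genes tested (at least 1 RPKM in at least 3 libraries and at least 2 values per group). Tests are two-sided, with 8 residual degrees of freedom. The table has 20793 entries, and 85 values marked as failed estimates were treated as missing. Depth was estimated from the smallest increments among low genes. The script was tested on simulated data. Figures used Python 3.11.15 and matplotlib 3.10.9.

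Named besides the members are up to 4 genes per list with the smallest p for the mean of the diets, Cxcr2, Csf3, Cxcl1, Cxcl2 and Cxcl5, and, for S100a8, Ngp and Lcn2, the 5 genes of highest correlation. Some genes that this rule names are not reported here. Genes given by RPKM alone beside the libraries that stood apart were chosen after their values were seen. Lists of platelet, B cell, T and NK cell, endothelial, epithelial, heart muscle and marrow genes were also counted.

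Deviations from the group means of same-numbered libraries of the same exposure correlated at 0.293 to 0.486 in all 6 pairs, over 0.1 each, so the numbers pair the diets within an exposure, from the data alone and not from the labels. The main fit does not model this pairing, so SE and p-values for the mean of the diets may be too small. Alternatives covered the pseudocount, filter, scaling, variance model, libraries fitted, replicate block and each library left out.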

Additional observations from a re-analysis of the deposited data

How the results depend on the processing

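On 60% fat, the number of members called in oxygen was 1, and became 0 without a filter on low values and with robust variances, 4 (S100a8, S100a9, Csf3r and Retnlg) when only the libraries of the comparison were fitted and 4 with the replicate number as a block over all libraries. It ran from 0 to 2 with 1 library left out. On 10% fat it was 1, and became 0 without the filter, with median-ratio scaling, with quantile normalization, without a variance trend and with robust variances, and 3 with the block. When only the libraries of the comparison were fitted it stayed at 1, but the member called was Camp in place of Csf3r. The number ran from 0 to 4 with 1 library left out. Over both diets it was 3, with 4 under the block, and ran from 2 to 5 with 1 library left out. Over all these settings, with those chosen later, 49.7% to 65.3% of all genes were called on 60% fat, 45.4% to 62.1% on 10% fat and 60.8% to 74.2% over both. No alternative called a member between the diets or for the difference of the oxygen effects. Across exposures the deviations of same-numbered libraries over all tested genes correlated at -0.131 to 0.220. Of the 12 libraries, 5 correlated best with their own number. Among the members an order did repeat: S100a8 and S100a9 were highest in the third and lowest in the second library of every group. Csf3r and Retnlg were also lowest in the second library of every group. What lies behind this order was not tested. The block within each exposure was fitted only between the diets and for the difference of the oxygen effects, where no member was called with or without it. It was not fitted for oxygen against room air, so it says nothing of those calls.

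With 1 library left out, log2 changes that turned sign ran on 60% fat from -2.40 to 0.70 for Ngp and from -2.54 to 0.30 for Camp. On 10% fat they ran from -1.78 to 0.22 for Retnlg, -0.38 to 0.81 for Ltf and -1.35 to 0.14 for Lcn2. Over both diets they ran from -0.33 to 0.42 for Lcn2 and from -0.19 to 0.67 for Cxcl5, and Lcn2 was -0.076 with quantile normalization. The diet differences in air ran from 0.05 to 3.15 for Ngp and from 0.35 to 3.18 for Camp. 2 further alternatives were chosen after seeing the data. Leaving out the third library of 60% fat in air together with that of 10% fat in oxygen called 2 members on 60% fat, 4 on 10% fat and 4 over both diets. Leaving out the third library of every group called 5, 3 and 4. On 60% fat these were S100a8, S100a9, Csf3r and Retnlg, all lower, and Lcn2, which was higher. That setting put Ngp at 0.20 on 60% fat and Lcn2 at 0.068 on 10% fat. It put the diet differences in air at -0.369 for Ngp and -0.094 for Camp. The causes were not tested. No scaling moved the median of all genes by over 0.1. Each group has 3 libraries and no counts, which limits the precision of every value.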

Other observations

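Other blood and lung cell types differed in how their genes moved in oxygen over both diets. The T and NK cell list had 11 of 12 genes lower and 1 higher (median log2 change -0.65), led by Cd3g (-1.23 ± 0.11, adjusted p = 5.07e-07), a chain of the T cell receptor complex. The B cell list had 4 of 10 lower (median -0.28), among them Cxcr5 (-1.12 ± 0.16, adjusted p = 5.22e-05). Monocyte genes were divided, with 3 of 12 higher and 6 lower (median -1.02): Ly6c2, the Ly6C antigen of inflammatory monocytes, fell by 1.83 ± 0.14 (adjusted p = 1.41e-07), while Ly6c1, which endothelium also expresses, rose by 1.43 ± 0.09 (adjusted p = 3.48e-08). Alveolar macrophage genes had 3 of 13 higher and 4 lower (median -0.33), with Ear2 lower by a log2 change of -2.04 ± 0.16 (adjusted p = 2.76e-07). Of 6 tested red cell genes 5 fell (median -1.69), and of 10 platelet genes none was called (median 0.03).

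Among lung cells, 7 of 9 epithelial genes fell (median -1.20), and 5 of 7 endothelial genes fell and 1 rose (median -0.26). All 8 heart muscle genes fell (median -3.10), led by Actc1 (-2.73 ± 0.15, adjusted p = 9.21e-09). Of 5 tested marrow precursor genes 4 fell and Cd34, which lung endothelium also expresses, rose by 0.84 ± 0.06 (adjusted p = 5.45e-08). Of 4 tested eosinophil, mast cell and basophil genes 3 fell (median -0.86), and Prg2, the gene most like Ngp, was not among them. Over all genes 41.8% were called lower and 30.5% higher in this comparison.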
